A study of Mus musculus with 9 samples.

Results

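DPPA4 is a nuclear protein of pluripotent cells and of the early germ line in the mouse. It acts together with its paralogue DPPA2 and is known to sit at CpG-rich promoters, including those of developmental genes. Most sites of a protein of this kind give a narrow peak in chromatin immunoprecipitation followed by sequencing (ChIP-seq). A broad peak is a long interval of unbroken enrichment that the peak caller did not split.

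The broad DPPA4 regions described here were chosen by width. A peak of any of the 6 deposited lists was taken as broad when it spanned 2500 bp or more, and broad peaks were merged over the lists where they overlapped. On chromosomes 1 to 19 this gave 907 broad peaks and 486 broad regions, out of 75170 regions formed by merging all peaks. E14 mouse embryonic stem cells were grown without feeders in 2i medium with serum. P19 embryonal carcinoma cells and 3T3 fibroblasts, which carried DPPA4 ectopically, were grown in DMEM with serum, and the labels do not give the construct or its promoter. All chromatin was precipitated with 1 antibody against DPPA4. Each line gave 2 ChIP libraries with a peak list and 1 input library that was not used here. Peaks were not filtered for repeated or poorly mappable sequence, and input signal at the broad regions was not examined. The labels do not tie the pair of libraries of a line to separate cultures, and what varies between them may be technical. Peak lists hold no expression values, so the lines were not checked against marker genes. Coordinates are 1-based in mm9, and no region was assigned to a gene.

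The lists held between 15118 and 59570 peaks on chromosomes 1 to 19, and the number of reads behind them is unknown. Replicate 2 had wider peaks than replicate 1 in every line, with list medians of 772 bp against 409 bp (E14), 539 bp against 452 bp (P19) and 876 bp against 403 bp (3T3). Elsewhere, a pair of values for a line stands for replicate 1 and then replicate 2 unless the libraries are named. A fixed width of 2500 bp therefore took a different share of each list. Each peak also has a score from the authors' peak caller, which was used as a percentile within its own list, with 100 for the highest score. Scores printed for single regions are the deposited values, and a higher score in another list need not rank higher there.

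Broad peaks were rare in every library, and more of them came from the second library of each line. E14 replicate 2 held 297 broad peaks (0.711% of its peaks) and E14 replicate 1 held 93 (0.156%). P19 replicate 2 held 198 (0.4%) and P19 replicate 1 held 104 (0.27%). In 3T3 cells replicate 2 held 195 (1.15%) and replicate 1 held 20 (0.132%). The spread between the libraries of a line was as large as that between lines, with means of 195 ± 144 broad peaks for E14, 151 ± 66.5 for P19 and 107.5 ± 124 for 3T3 (SD, n = 2). These counts describe the selection itself and were not tested. Of the 486 regions, 475 held a broad peak of a replicate 2 library and 138 one of a replicate 1 library.

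**Figure D1:**
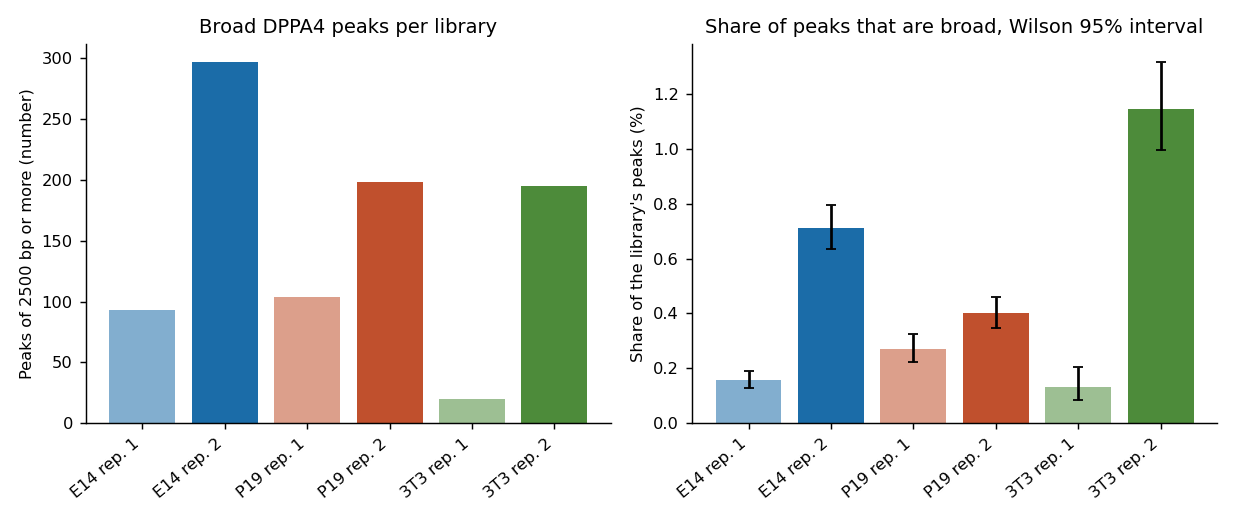
The left panel shows the number of DPPA4 peaks of 2500 bp or more in each library, and the right panel their share of all peaks of that library on chromosomes 1 to 19 in percent, with Wilson 95% intervals that cover counting error alone. Pale bars are replicate 1 and full bars replicate 2, which is the higher one in each of the 3 lines and reaches 297 peaks in E14.

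The broad regions had a median width of 2966.5 bp, with the middle of the distribution between 2703 and 3500 bp. Over all merged regions the median was 627 bp. Just 32 broad regions reached 5 kb and 5 reached 10 kb, so most of them lay close to the threshold. The narrowest peaks inside the threshold measured 2500 bp (P19 replicate 1, chromosome 5), 2501 bp and 2502 bp (3T3 replicate 2, chromosomes 13 and 12). The widest outside it measured 2499 bp (3T3 replicate 1, chromosome 8) and 2498 bp in both E14 replicate 2 on chromosome 11 and 3T3 replicate 2 on chromosome 15. Those 6 peaks ranked between the score percentiles 88.9 and 99.4 of their lists, and those inside overlapped those outside.

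Most broad peaks were also among the best-scoring peaks of their own list. Of the 907 broad peaks, 778 (85.8%) lay in the top score decile, and 10 lay below the median score. Their median percentile was 99.4 in E14 replicate 1, 96.1 in E14 replicate 2, 98.1 and 97.8 for P19, and 99.5 and 97.8 for 3T3. In P19 many were at 3100 or above, where the score ties, namely 66 of 104 and 112 of 198. In E14 the counts were 33 of 93 and 25 of 297, and in 3T3 they were 1 of 20 and 10 of 195. Width and score are made from the same reads, with Spearman correlations between 0.73 and 0.89 across the peaks of a list, so these values are a description of the selection.

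Most broad regions were occupied in the stem and carcinoma cells, also those broad in 3T3 alone. Of the 486 regions, 457 (94%) had a peak in all 4 E14 and P19 libraries, against 32.5% of all merged regions, and 293 had one in all 6 libraries. These 293 are 60.3% (Wilson interval 55.9 to 64.5), against 9.32% of all merged regions. At least 4 libraries had a peak in 475 broad regions (97.7%), against 36.5% of all merged regions. By the rule, each broad region has a peak in every library where it was broad, so part of this occupancy was fixed by the selection. Of the 127 regions broad in 3T3 alone, both E14 libraries had a peak in 118 and both P19 libraries in 111. Wide intervals are more easily touched by a peak, and the shares carry no test. The 3T3 libraries were the ones most often missing, with a peak in 325 and 370 broad regions (66.9% and 76.1%), against 16.9% and 22.0% of all merged regions. The E14 libraries had one in 476 and 478 broad regions (97.9% and 98.4%), against 72.8% and 54.4% of all merged regions, and the P19 libraries in 466 and 472 (95.9% and 97.1%), against 46.9% and 62.6%. All 4 E14 and P19 libraries and no 3T3 library had a peak in 99 broad regions (20.4%), a share close to the 18.7% of all merged regions.

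Width was shared less widely than occupancy. A broad peak was present in a single library in 303 regions, in 2 libraries in 81, in 3 in 43, in 4 in 41, in 5 in 10 and in all 6 in 8. By line, 142 regions were broad in E14 alone, 127 in 3T3 alone, 62 in P19 alone and 98 in E14 with P19. The remaining combinations were all 3 lines with 34 regions, E14 with 3T3 with 17 and P19 with 3T3 with 6. Most single-line regions rested on 1 replicate 2 library, namely 128 of 142 in E14, 119 of 127 in 3T3 and 46 of 62 in P19. Regions broad in both libraries of a line were 82 for E14, 84 for P19 and 15 for 3T3. The 82 were 95.3% of the regions broad in E14 replicate 1 and 28.6% of those broad in replicate 2. For P19 these shares came to 88.4% and 44.4%, and for 3T3 to 78.9% and 8.33%. Broadness in replicate 1 was thus mostly repeated in replicate 2. The same shared regions were a smaller share of those broad in replicate 2, where more regions were broad.

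**Figure D2:**
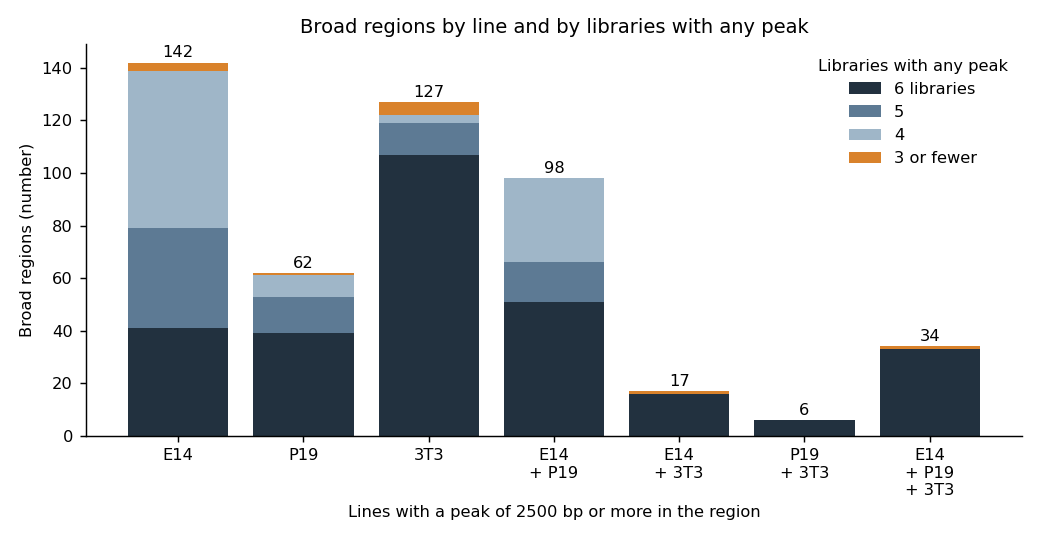
Bars give the number of broad regions for each combination of lines with a peak of 2500 bp or more, and shades give the number of libraries with any peak in the region. Of the 127 regions broad in 3T3 alone 107 had a peak in all 6 libraries, against 41 of the 142 broad in E14 alone.

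Most regions broad in 3T3 alone also held peaks of the other lines, which by the selection were under 2500 bp. Of these 127 regions, 124 had an E14 peak and 120 a P19 peak, where 80.1% and 68.3% of all merged regions had one. The widest peak there had a median of 1133 and 2815 bp in 3T3, against 861 and 1414 bp (E14) and 655 and 1049.5 bp (P19), so the 3T3 replicate 1 value lay within the range of the E14 and P19 libraries. For regions broad in E14 the counts in 3T3 were lower. Of the 142 regions broad in E14 alone, 139 had a P19 peak and 80 a 3T3 peak, where 24.5% of all merged regions had a 3T3 peak. Of the 98 regions broad in E14 and P19, 66 had a 3T3 peak, and of the 62 broad in P19 alone 53 had one. The 3T3 lists were the shortest, and whether missing 3T3 peaks lay below detection was not tested.

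The next comparison asks whether a broad peak of one library marks a site that other libraries also hold. For each peak, the midpoint was looked up in another list, and each library's broad peaks were chosen on its own list alone. A midpoint can fall between the shorter peaks of another list, so a broad peak that overlaps peaks there can count as not found. All 297 broad peaks of E14 replicate 2 overlapped a peak of replicate 1, and 263 had their midpoint in one. Of the 195 broad peaks of 3T3 replicate 2, 1 overlapped no peak of replicate 1, and 143 had their midpoint in one. Broad peaks were found in the other lines more often than narrower peaks in 6 of 6 libraries. The difference in shares, averaged over the 4 libraries of the other lines, was 15.4 ± 9.61 percentage points (SD, n = 6, exact two-sided sign-flip permutation p = 0.0313, the smallest that 6 libraries can give). It ranged from 3.60 points in 3T3 replicate 2 to 27.3 in E14 replicate 1. The 2 libraries of a line are not independent of each other, and neither are shares measured in the same lists.

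By midpoint, the advantage averaged over libraries was not seen among the best-scoring peaks. Within the top score decile of each list, a restriction chosen after the data were seen, broad peaks were found less often than narrower ones in 5 of 6 libraries. The mean difference was -4.78 points (exact sign-flip permutation p = 0.0938). Without 3T3 replicate 2, where it was -17.5 points, it was -2.25 points. Between E14 and P19, narrower peaks of that decile were already found at 97.5% to 98.9%, which left little room for a positive difference. Averaged over all score deciles that held both kinds of peak, the difference was -18.8 points (exact sign-flip permutation p = 0.0938). Each decile had equal weight there, although 778 of the 907 broad peaks lay in the top decile. The other deciles thus rested on few broad peaks, as 89 of 93 were in the top decile for E14 replicate 1. With 500 bp around each midpoint compared in place of the peaks, the difference was 3.02 points (exact sign-flip permutation p = 0.625). With any overlap of 1 bp counted, where a wide peak has more room to meet another, it was 27.5 points (exact sign-flip permutation p = 0.0313).

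**Figure D3:**
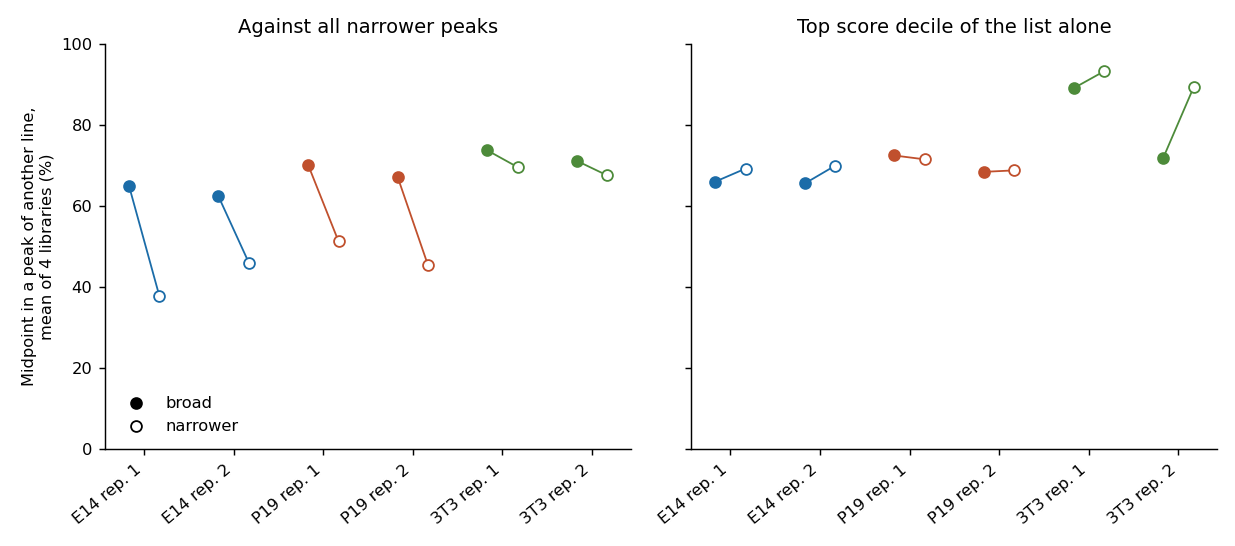
Each filled point is the share of a library's broad peaks whose midpoint lay in a peak of another line, averaged over the 4 libraries of the other lines, and each open point is the same for its narrower peaks, in percent. Broad peaks lie above narrower ones in 6 of 6 libraries on the left (all peaks) and in 1 of 6 on the right (top score decile of the list alone).

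Between E14 and P19 most broad peaks of either line met a peak of the other. Of the 93 broad peaks of E14 replicate 1, 84 and 86 had their midpoint in a peak of P19 replicate 1 and 2, where 49.4% and 63.1% of all its peaks did. Of the 297 of E14 replicate 2, 251 and 271 did so, where 59.3% and 73.8% of all its peaks did. Of the 104 of P19 replicate 1, 93 and 96 lay in a peak of E14 replicate 1 and 2, against 78.6% and 74.9% of all its peaks. Of the 198 of P19 replicate 2, 178 and 186 did, against 71.2% and 66.2%. The shares of broad peaks thus ran from 84.5% to 93.9% over these 8 pairs of libraries.

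Fewer of the broad E14 and P19 peaks met a 3T3 peak, but more than among all peaks of those lists. For E14 replicate 1 it was 28 and 44 of 93 in 3T3 replicate 1 and 2, against 15.5% and 23.3% of all its peaks. For E14 replicate 2 it was 84 and 135 of 297, against 20.3% and 30.8%. For P19 replicate 1 it was 36 and 67 of 104, against 21.1% and 30.8%. For P19 replicate 2 it was 64 and 104 of 198, against 17.7% and 26.5%. Over the 8 pairs the shares of broad peaks ran from 28.3% to 64.4%.

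By midpoint, the broad peaks of the 3T3 fibroblasts were found in the other lines about as often as all 3T3 peaks. Of the 195 broad peaks of 3T3 replicate 2, 132 and 158 lay in a peak of E14 replicate 1 and 2, against 67.7% and 75.1% of all its peaks. In P19 replicate 1 and 2 it was 116 and 149, against 57.8% and 69.8%. Counted by any overlap, 6, 2, 12 and 7 of the 195 met no peak of E14 replicate 1 and 2 and P19 replicate 1 and 2. At least 2 peaks of these lists were overlapped by 43.1% to 67.7% of the 195. Of the 20 of 3T3 replicate 1, 17 and 14 lay in an E14 peak, against 70.3% and 76.9%, and 14 in a peak of either P19 library, against 59.5% and 71.6%. The advantage of broad over narrower peaks, counted by midpoint, was 3.88 points in the 3T3 libraries and 21.1 points in the E14 and P19 libraries. That difference of -17.2 points had an exact two-sided permutation p of 0.0667 over the 15 ways to draw 2 of 6 libraries, the smallest possible.

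In the replicate library of the same line, broad peaks were found more often than narrower ones in 5 of 6 libraries. Each pair of lists was compared in both directions, so the 6 values are not independent. The difference was 16.6 ± 15.5 points (SD, n = 6, exact two-sided sign-flip permutation p = 0.0625) and did not pass the threshold. It was 8.83 points with the best-scoring 50% of each list and 8.26 points with lists as long as the shortest. Of the broad peaks of E14 replicate 1 and 2, 89 of 93 and 263 of 297 lay in a peak of the other library, against 65.1% and 81% of all peaks. In P19 it was 102 of 104 and 193 of 198, against 86.4% and 61.6%. In 3T3 it was 16 of 20 and 143 of 195, against 86.2% and 54%. The library with the opposite sign was 3T3 replicate 1, at -6.22 points, with 20 broad peaks. Within the top score decile the difference was -4.71 points (exact sign-flip permutation p = 0.0625), and -2.18 points without 3T3 replicate 2. Narrower peaks of that decile were found at 99.9% and 99.4% (E14), 100% and 99.6% (P19), and 100% and 94.3% (3T3). A positive difference thus had almost no room outside 3T3 replicate 2. The difference was -19.3 points averaged over score deciles with equal weight, and -0.618 points with 500 bp around each midpoint.

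Width and score rank were both higher in the replicate library at broad peaks. Each list's broad peaks were chosen on that list alone, but width in any of the 6 lists chose the regions as a set. Within a list, width also follows score. At the midpoint of a broad peak, the peak of the replicate library was wider than at narrower peaks. The difference of medians was 2122 ± 860 bp (SD, n = 6, exact two-sided sign-flip permutation p = 0.0313, the smallest possible). These 6 values come from 3 pairs of lists, each taken in both directions, and the test treats them as independent. The difference was positive in 6 of 6 libraries and ran from 847 bp (3T3 replicate 2) to 2946 bp (E14 replicate 1). Within the top score decile it was 1722 bp, again positive in 6 of 6 libraries (exact sign-flip permutation p = 0.0313). In that decile the replicate peak measured 3763 bp at broad and 1227 bp at narrower peaks of E14 replicate 1, 3319 and 1105 bp for P19 replicate 1, and 4044.5 and 1533.5 bp for 3T3 replicate 1. For the replicate 2 lists the medians at broad and at narrower peaks were 2151 and 946 bp (E14), 2427 and 928 bp (P19), and 1309 and 941 bp (3T3).

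The peaks of the other lines were wider there too. For broad and narrower peaks of the top score decile of E14 replicate 2, the mean of the median widths was 2283 and 1011.5 bp for the P19 peaks and 1818 and 747 bp for the 3T3 peaks. For P19 replicate 2 it was 2645 and 975 bp in E14, and 1838 and 650.5 bp in 3T3. For 3T3 replicate 2 it was 1692 and 1077 bp in E14, and 1576 and 879.8 bp in P19. These widths were not tested.

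Score rank followed the same direction. Its 6 values come from the same 3 pairs of lists in both directions and are not independent either. The replicate peak ranked higher at broad than at narrower peaks by 32.2 ± 5.26 percentile points (SD, n = 6, exact two-sided sign-flip permutation p = 0.0313, the smallest possible). The difference was positive in 6 of 6 libraries and ran from 27.6 to 40.2 points. Within the top score decile it was 3.25 points (exact sign-flip permutation p = 0.0625), with 5 of 6 libraries positive and none negative, and averaged over score deciles it was 5.44 points.

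The share of broad peaks that met a broad peak in the other library depended on the direction. Of the 93 in E14 replicate 1, 87 met a broad peak in replicate 2, where 1.07% of all its peaks did. Of the 297 in E14 replicate 2, 80 met one in replicate 1, where 0.203% of all its peaks did. In P19 it was 93 of 104 from replicate 1, against 0.929% of all peaks, and 90 of 198 from replicate 2, against 0.218%. In 3T3 it was 16 of 20 from replicate 1, against 3.2%, and 15 of 195 from replicate 2, against 0.0882%.

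Between E14 and P19 a broad peak often met a broad peak as well, and most often in a replicate 2 library. Of the 93 in E14 replicate 1, 56 and 75 met a broad peak of P19 replicate 1 and 2, where 0.316% and 0.666% of all its peaks did. Of the 297 in E14 replicate 2, 80 and 134 did, against 0.266% and 0.57% of all its peaks. Of the 104 in P19 replicate 1, 53 and 82 met a broad peak of E14 replicate 1 and 2, against 0.405% and 1.57%. Of the 198 in P19 replicate 2, 69 and 134 did, against 0.208% and 0.94%. Both sides of these counts were chosen by width, and they are given as a description.

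With 3T3 the counts were lower. Broad peaks of 3T3 replicate 1 and 2 were met by 9 and 23 of the 93 broad peaks of E14 replicate 1 (0.0436% and 0.685% of all its peaks), and by 9 and 55 of the 297 of E14 replicate 2 (0.0479% and 0.661%). From P19 replicate 1 it was 9 and 32 of 104 (0.0519% and 0.848%), and from P19 replicate 2 it was 9 and 40 of 198 (0.0404% and 0.655%). Each library of E14 and P19 thus met 3T3 replicate 1 at 9 broad peaks. In the opposite direction, 11 and 10 of the 20 of 3T3 replicate 1 met a broad peak of E14 replicate 1 and 2 (0.542% and 2.15% of all its peaks), and 10 met one in either P19 library (1.12% and 1.85%). Of the 195 of 3T3 replicate 2, 24 and 61 met one in the E14 libraries (0.459% and 1.56%), and 37 and 48 in the P19 libraries (0.723% and 1.32%).

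A broad peak of one list was often a row of shorter peaks in another. Of the broad peaks of E14 replicate 2, 193 of 297 (65%) overlapped at least 2 peaks of replicate 1, and they were covered to a median of 84.8% of their length. For 3T3 replicate 2 it was 143 of 195 (73.3%), covered to 66.1%, and for P19 replicate 2 it was 110 of 198 (55.6%), covered to 92.1%. In the opposite direction, from replicate 1 to replicate 2, 8 of 93 broad peaks were split in E14, 18 of 104 in P19 and 1 of 20 in 3T3. Among narrower peaks the share that overlapped at least 2 peaks of the replicate ran from 0.139% to 10.1%. The narrower peaks are shorter and so have less room for a second peak.

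In 8 regions all 6 libraries had a broad peak. Whether repeated sequence or input signal contributes to peaks held by all libraries was not tested. On chromosome 17, from 39979769 to 39986017, each library had a single peak of nearly the same length, 6179 and 6204 bp (E14), 5903 and 5947 bp (P19), and 5906 and 6110 bp (3T3). Its score was 3100 in 5 libraries and 1912 in E14 replicate 1. On chromosome 15, from 91736644 to 91741099, each library also had a single peak, between 4058 and 4456 bp. There the scores were 3100 in the 4 E14 and P19 libraries, and 543 and 294.5 in 3T3. The lengths of these peaks were close in all 6 libraries in both regions. Score percentiles ran from 97.8 to 100 in the region of chromosome 17. In that of chromosome 15 they ran from 97.8 to 99.8 in E14 and P19, and were 94.7 and 69.9 in 3T3.

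In other regions of this group the lengths varied more, between lines or between the libraries of a line. On chromosome 12, from 114013609 to 114023301, the widest peak measured 9240 and 9592 bp (E14), 9293 and 9310 bp (P19), and 4027 and 9558 bp (3T3), with 3T3 replicate 1 alone standing apart. On chromosome 15, from 76002392 to 76014545, it measured 12154 and 10489 bp (E14), 7004 and 9312 bp (P19), and 3593 and 3682 bp (3T3). The 3T3 libraries were the lowest there, and P19 replicate 1 and 3T3 replicate 2 each had 7 peaks in the region. One more region of chromosome 15, from 75932685 to 75936775, held 1 peak per library, between 3466 and 4088 bp, with scores of 3100 and 3194 (E14), 849 and 1279 (P19), and 439 and 498 (3T3). On chromosome 18, from 3113154 to 3120782, the widest peak ran from 4646 to 7629 bp, both in 3T3. The remaining 2 regions stand close together on chromosome 1, one from 172993496 to 172997651 and one from 173007595 to 173012504, with a widest peak of 3131 to 4007 bp and 3006 to 4768 bp.

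**Figure D4:**
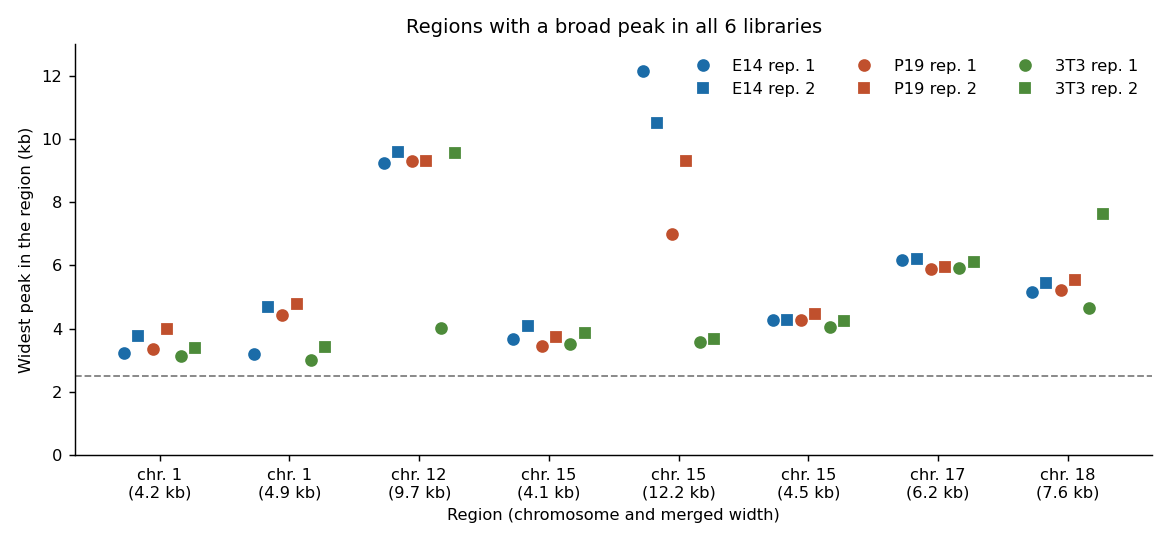
Each point is the widest peak of 1 library, in kb, in the 8 regions where all 6 libraries had a peak of 2500 bp or more (dashed line); circles are replicate 1, squares replicate 2, and colours are lines. The 6 libraries nearly coincide in the 6249 bp region of chromosome 17, at 5903 to 6204 bp, and spread from 3593 to 12154 bp in the 12154 bp region of chromosome 15.

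The widest broad region, on chromosome 8 from 126060970 to 126148634, spanned 87.7 kb, where the next widest spanned 12214 bp. It is a chain of adjoining peaks with gaps of at most 2147 bp. P19 replicate 2 covered 99.3% of it with 9 peaks, the widest of 27212 bp, and P19 replicate 1 covered 99.2% with 17. E14 replicate 2 covered 99% with 14 peaks, and E14 replicate 1 covered 89.3% with 59. In 3T3, replicate 2 covered 96.0% with 23 peaks, and replicate 1 covered 59.1% with 74 peaks, none of them broad. Scores reached 3100 or more in 12 and 8 of the peaks in the P19 libraries. They reached at most 1441 and 1753 in E14, and 415.5 and 2211 in 3T3. Within its own list, the best peak there ranked at percentile 97.7 and 98.7 (E14), 99.9 and 97.8 (P19), and 91.3 and 99.5 (3T3). The region supplied 46 of the 907 broad peaks.

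**Figure D5:**
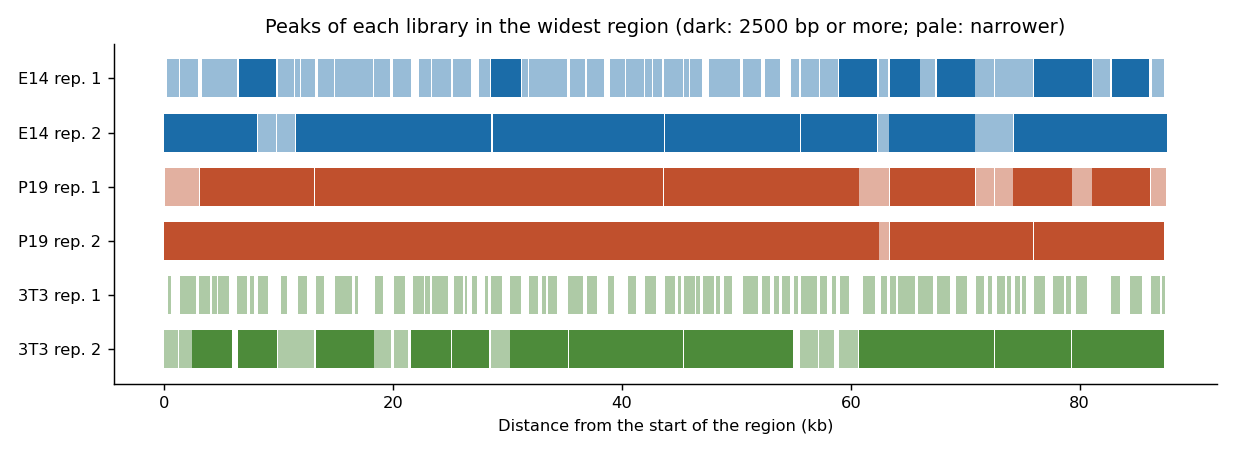
Bars are the peaks of each library along the 87.7 kb region of chromosome 8, by distance from its start in kb; dark bars are 2500 bp or more and pale bars narrower, and the shortest gaps are thinner than can be drawn. P19 replicate 2 has 9 peaks there and 3T3 replicate 1 has 74.

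Other wide regions had broad peaks in E14 or P19 and none in 3T3. On chromosome 3, from 6297288 to 6307780, a single peak of 10383, 10491 and 10375 bp stood in E14 replicate 1, E14 replicate 2 and P19 replicate 2. P19 replicate 1 had 6 peaks there, the widest of 4418 bp, and neither 3T3 library had any. On chromosome 10, from 27538047 to 27545678, the widest peak measured 7526 and 7571 bp (E14) and 6026 and 7487 bp (P19), again with no 3T3 peak. On chromosome 12, from 113410447 to 113417961, it measured 3362 and 7515 bp (E14) and 2755 and 2988 bp (P19). That region had no peak in 3T3 replicate 1 and a peak of 1083 bp with a score of 80.3 in 3T3 replicate 2. On chromosome 8, from 125949568 to 125958558, both P19 libraries had 2 peaks, the widest of 5040 and 4861 bp, and no E14 or 3T3 library had any. The P19 scores there were 281 and 380.

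Among regions broad in E14 alone, chromosome 12 from 113973077 to 113978235 had peaks of up to 2856 and 5159 bp in E14, of up to 1003 and 1241 bp in P19, and none in 3T3. Chromosome 15 from 76282003 to 76287004 had up to 2856 and 5002 bp (E14), 558 and 953 bp (P19), and no 3T3 peak. At the first of them the best scores were 2735 and 2283 in E14, against 320 and 470 in P19, and at the second 1244 and 1216 in E14, against 231 and 233 in P19. Chromosome 19 from 4611891 to 4615786 was occupied in all 6 libraries, with up to 2648 and 3896 bp (E14), 1495 and 2483 bp (P19), and 1179 and 1638 bp (3T3). Regions broad in P19 alone included chromosome 1 from 74994213 to 74999026, with 2840 and 4814 bp in P19, 1351 and 1716 bp in E14, and 3T3 peaks of 528 and 1522 bp. The P19 scores there were 3100 in both libraries, whereas the E14 scores were 514 and 349. Chromosome 7 from 150644651 to 150648014 had 3175 and 3364 bp in P19, 1031 and 2290 bp in E14, and 442 and 2407 bp in 3T3.

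Among broad regions of 3T3, the peaks of the other lines ranged from none to high-scoring ones. On chromosome 15, from 6477133 to 6483999, the 3T3 libraries had a single peak of 6800 and 6850 bp with scores of 2093 and 1652. E14 had 3 peaks of up to 367 and 1403 bp there, scoring at most 89.5 and 116, and P19 had none. On chromosome 7, from 12595631 to 12601605, the widest peak was 4584 and 5975 bp in 3T3, 741 and 1700 bp (E14), and 975 and 1662 bp (P19). The best scores there were 2001 and 1225 in 3T3, against 532 and 245 in E14 and 306 and 279 in P19. On chromosome 15, from 84683705 to 84687101, it was 2527 and 3397 bp in 3T3, 1696 and 1932 bp (E14), and 523 and 1453 bp (P19). There the best scores were 1148 and 2235 in 3T3, 1095 and 386 in E14, and 183 and 472 in P19. Within their own lists these ranked at percentiles 99.3 and 99.5 in 3T3, 95.7 and 82.6 in E14, and 62.0 and 80.5 in P19. On chromosome 17, from 13743094 to 13746466, 3T3 had peaks of 2701 and 3373 bp with scores of 740.5 and 827. E14 replicate 1 had 1 peak of 2763 bp there with a score of 54.3, and E14 replicate 2 and both P19 libraries had none.

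Broad peaks shared by E14 and 3T3 without P19 included the region of chromosome 3 from 93084861 to 93097074. E14 replicate 2 had a peak of 10734 bp there and 3T3 replicate 2 one of 9264 bp. The other libraries split it into 15 peaks (E14 replicate 1), 16 and 12 (P19) and 11 (3T3 replicate 1), none wider than 2228 bp. Broad peaks shared by P19 and 3T3 without E14 included chromosome 6 from 88147852 to 88151075, with 3119 and 3075 bp in P19, 864 and 2657 bp in 3T3, and 851 and 1871 bp in E14. On chromosome 2, from 174152448 to 174156760, the widest peak was 2599 and 1541 bp in P19, 1443 and 2973 bp in 3T3, and 1255 and 1353 bp in E14.

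Few broad regions had little support. A peak was present in 3 or fewer libraries in 11 of the 486 regions, 5 of them with peaks in replicate 1 libraries alone and none with peaks in replicate 2 libraries alone. On chromosome 11, from 3026545 to 3038142, the replicate 1 library of each line had a broad peak, of 11574 bp (E14), 2738 bp (P19) and 7554 bp (3T3). No replicate 2 library had a peak there. The scores were low for such widths, at 54.9, 76 and 212. Peaks in a single library stood on chromosome 8 from 19978799 to 19983497 (E14 replicate 1, score 94) and from 19923722 to 19927221 (3T3 replicate 1, score 255), and on chromosome 4 from 3007426 to 3011733 (3T3 replicate 1, score 136). Of the 10 broad peaks below the median score of their list, 5 lay within the first 4 Mb of chromosomes 6, 11 and 17.

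Broad regions were spread over all 19 autosomes but unevenly. Chromosome 11 held 55 of them, chromosome 8 held 44 and chromosome 17 held 42, and chromosome 14 held 8. As a share of all merged regions of the chromosome, chromosome 15 had the highest value with 1.09%, followed by chromosome 17 with 1.07% and chromosome 8 with 0.993%. The lowest were chromosome 14 with 0.309% and chromosome 1 with 0.325%. Of the broad regions 150 (30.9%) lay within 100 kb of another, in 57 runs, and 336 stood alone. The median distance between neighbours was 1214 kb, against 10.4 kb over all merged regions. Gaps under 100 kb were 19.9% of those between broad regions and 92.1% of those between all merged regions. The broad regions are far fewer (486 against 75170), so longer gaps follow from their number, and neither contrast shows how they are placed. The largest run held 12 broad regions on chromosome 6 between 47598665 and 47716496, with 12 broad peaks each in E14 replicate 2 and 3T3 replicate 2, 5 in P19 replicate 2, 2 in E14 replicate 1 and none in P19 replicate 1 and 3T3 replicate 1. All 6 libraries had between 13 and 20 peaks there. Runs of 5 lay on chromosome 15 between 75739000 and 76014545 and on chromosome 8 between 19862254 and 20020865.

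Broad peaks also had more narrower peaks around them in E14 and P19. Within 50 kb on either side, the mean number of narrower peaks of the same list was 12.1 around broad and 6.89 around narrower peaks in E14 replicate 1, and 7.80 and 4.23 in E14 replicate 2. In P19 the means were 7.64 and 4.72 in replicate 1, and 8.91 and 5.61 in replicate 2. In 3T3 they were 2.50 and 2.74 in replicate 1, and 2.96 and 2.29 in replicate 2, so the replicates differed in sign. The medians around broad and narrower peaks were 8 and 4 in E14 replicate 1, and 7 and 2 in E14 replicate 2. They were 7.5 and 3, and 7 and 3, in P19, and 1 and 1, and 2 and 1, in 3T3. Of the 93 broad peaks of E14 replicate 1, 7 lay in the 87.7 kb region of chromosome 8. That region held 59 peaks of this list. These counts carry no test.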

How the data were processed

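DPPA4 ChIP-seq was deposited for 3 mouse lines as 1 peak list per library, 2 per line. Per the submitters' processing notes, the build is mm9 and the tools include SAMtools 1.3, BWA 0.7.13-r1126, bcl2fastq 1.8 and CASAVA 1.8. Peak names in the deposited files begin with MACS, a peak caller. Its version, threshold and control were not given in the sources used here. Each deposited score is the authors' own, its scale is not named, and it was used to rank peaks within a list. Deposited starts and ends are positions in bp, and no file gives read counts, so depth is unknown.

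Peaks on chromosomes 1 to 19 with end minus start of 2500 bp or more were merged at an overlap of 1 bp. A peak was found in another list where its midpoint lay in a peak there. Differences between broad and narrower peaks were tested by sign-flip permutation over 6 libraries (64 patterns, exact). The smallest p it can give is 0.0313. The test treats the 6 libraries as independent, although replicate comparisons use each pair of lists in both directions. Averages over score deciles gave each decile equal weight. Wilson 95% intervals cover counting error and treat peaks as independent. Members and rules were chosen with earlier results of these data known. Regions named were the 10 widest, up to 3 per combination of lines (most broad libraries, then width), those broad in all 6 libraries, up to 3 in a single library, the longest runs within 100 kb, and the peaks beside the threshold. Gene lists and sequences were not used, because no annotation on mm9 was used here. Alternatives were other widths, the widest 1% of each list, shorter lists, other overlap rules, score deciles, a block by replicate number and each library left out in turn. The top score decile alone and single replicate numbers were added after the data were seen. Code was tested on 20000 simulated sites. Code ran in Python 3.11.15 with SciPy 1.17.1, pandas 2.3.3, NumPy 2.4.6 and, for figures, Matplotlib 3.10.9.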

Additional observations from a re-analysis of the deposited data

Results flagged for a closer look

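Peaks of 2500 bp or more also lay outside chromosomes 1 to 19, in data that the comparisons above did not use. They numbered 29 over the 6 lists, 21 on the X chromosome and 8 on unplaced contigs. The widest of them measured 23733 bp, on the X chromosome from 166423440 to 166447172 in E14 replicate 2, with a score of 496. In E14 replicate 1 the same stretch held peaks of 14238, 3475 and 5740 bp, in 3T3 replicate 1 it held a peak of 6972 bp, and no broad peak of P19 lay there. Another broad region of the X chromosome, near 114200634, had broad peaks in both E14 libraries, both P19 libraries and 3T3 replicate 2. Its scores were 3100 in E14 and P19 and 297 in 3T3 replicate 2.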

How the results depend on the processing

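The number of broad regions (486) follows the width chosen. It was 1264 at 2000 bp, 222 at 3000 bp, 1079 with the widest 1% of each list and 148 with the replicate 1 libraries alone, and it ranged from 364 to 486 when a library was left out. The share with a peak in all libraries (60.3%) was 51.8% with the widest 1% of each list, 41.9% with the best-scoring 50% of each list and 44.2% with lists as long as the shortest, and from 54.5% to 72.3% when a library was left out. The advantage of broad peaks in the other lines (15.4 points) was 27.5 with any overlap of 1 bp counted, 3.02 with 500 bp around each midpoint, -18.8 averaged over score deciles and -4.78 in the top decile. It ranged from 12.9 to 19.9 when a library was left out. In the replicate library (16.6 points) it passed the threshold at 2000 bp (18.7) and with the widest 1% (19.5), and was 8.83 with the best-scoring 50% of each list (exact sign-flip permutation p = 0.344) and 8.26 with lists as long as the shortest (p = 0.0938, same exact test). It was -0.618 with 500 bp around each midpoint, -19.3 averaged over deciles and -4.71 in the top decile, and ranged from 12.9 to 21.5 when a library was left out. The percentile difference (32.2) was 5.44 averaged over deciles and 3.25 in the top decile, and from 31.2 to 33.8 when a library was left out. The width difference (2122 bp) was 1332 bp with the widest 1%, 1547 bp at 2000 bp, 2781 bp at 3000 bp and 1722 bp in the top decile, each with the smallest possible p, and from 2052 to 2237 bp when a library was left out. With 5 libraries or fewer the exact p cannot go below 0.0625. With a replicate block (lists of equal replicate number compared), the advantage in the other lines was 17.0 points (exact sign-flip permutation p = 0.0313), and the block changed no call. Nothing in the labels ties libraries that share a number. Over 7006 regions held by all libraries, the change in covered length between replicates correlated by 0.093, 0.048 and 0.013 between lines.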
